A study of Homo sapiens with 4 samples.

Results

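The genes described here encode the G1 machinery that palbociclib acts on: the D-type cyclins CCND1, CCND2 and CCND3, the kinases CDK4 and CDK6 that they activate, the E-type cyclins CCNE1 and CCNE2, and the retinoblastoma (RB) family RB1, RBL1 and RBL2. These 10 genes, of the 60279 listed in each count table, were chosen by name for their role, with earlier results of these data known. All 10 passed the filter on low counts. They were followed in 4 RNA sequencing libraries of SUM159, an established triple-negative breast cancer cell line, with 1 library per condition. The untreated library held 12555908 reads in genes, the palbociclib library 12691481, the indisulam library 16712174 and the combination library 14359529.

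Cells without either drug made up the untreated group, cells given palbociclib alone or indisulam alone the single-drug groups, and cells given both drugs together the combination group. All came from the same line, grown in medium with serum, insulin and hydrocortisone. Palbociclib blocks the kinase activity of CDK4 and CDK6. Indisulam is an aryl sulfonamide under which cells lose RBM39, a protein needed for pre-mRNA splicing, through the DCAF15 ubiquitin ligase. The sample labels give 0.5 µM palbociclib and 2 µM indisulam for 10 days, whereas the text on the series gives 2 µM and 3 µM for 16 h in technical duplicates. Dose and duration are therefore left undecided here, and pooling of duplicates was not stated. With 1 library per condition there was no replicate check and no p-value was computed.

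D-type cyclins rise with growth factor signalling and bind CDK4 and CDK6, which begin to phosphorylate RB1. RB1 holds the E2F1 to E2F3 transcription factors inactive, while its relatives RBL1 (p107) and RBL2 (p130) work mainly with E2F4 and E2F5, RBL2 chiefly in resting cells as part of the DREAM repressor. Once RB is partly phosphorylated, E2F activates CCNE1 and CCNE2, and cyclin E with CDK2 completes the phosphorylation and drives entry into S phase. CCNE1, CCNE2 and RBL1 are therefore classic E2F target genes, whereas CDK4 and CDK6 messages are less tied to the cycle.

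Start regions are described first. CCNE1, RBL1 and CDK6 were picked for printing because their levels followed the drugs differently, and a link of sequence to response was not tested. RefSeq promoters of GRCh38.p14 were searched for 7 of the 10 genes and 11 starts. Each window reached from 250 bases before to 50 bases after the start. CCND1, CCND2 and CCNE2 were not searched, so nothing is said here about E2F words at their starts. The 100 bases just before the start are given here for CDK6, CCNE1 and RBL1, 5′ to 3′ on the strand of the gene. Matches to an E2F word are in capitals. CDK6 is at chr7:92836574-92836673 on the minus strand, CCNE1 at chr19:29811891-29811990 on the plus strand and RBL1 at chr20:37095998-37096097 on the minus strand.
CDK6: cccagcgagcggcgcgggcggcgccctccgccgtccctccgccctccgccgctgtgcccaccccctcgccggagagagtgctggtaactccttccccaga
CCNE1: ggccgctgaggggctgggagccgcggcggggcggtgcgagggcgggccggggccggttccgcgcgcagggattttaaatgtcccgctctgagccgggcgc
RBL1: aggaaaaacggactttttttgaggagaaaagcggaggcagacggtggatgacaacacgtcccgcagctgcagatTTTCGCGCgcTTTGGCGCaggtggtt

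The E2F words searched, on both strands, were TTTCCCGC, TTTCGCGC, TTTGCCGC and TTTGGCGC. RBL1 held 2 of them, with first bases at -26 and -16 relative to the start and no overlap between them. Such a match was present in 3.31% of the 35116 promoters of this length. None of the other 10 windows of the searched genes, CCNE1 and CDK6 included, held one of these words. This says only that these letters are not in those windows. The only RB1 window, chr13:48476200-48476499, lies inside the gene, which begins at 48303744, so the region at that first base was not searched. The windows of CDK4, CCND3 and RBL2 also lie inside the gene and leave out its first annotated base. The CHR word TTTGAA, a DREAM-type element, was present once among the 11 windows, 25 bases after the first RBL2 start, and in 15.2% of all promoters. G and C made up 78% of the printed CCNE1 bases, 77% of those of CDK6 and 54% of those of RBL1.

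Gene positions are those of GENCODE on GRCh38, counted from 1. Levels are given as CPM, the read count scaled to the library's total of gene reads, when a gene is followed across libraries. When genes are compared with each other, the level is given per kilobase of exon as well (RPKM). A ratio between libraries is the log2 of scaled counts plus a pseudocount of 1, with a 95% interval from Poisson counting error in brackets. A gene was called higher or lower when this ratio was at least 2-fold and the interval excluded no change. The intervals cover counting error alone. The spread between libraries was gauged by the departure of the combination from the sum of the single drugs, over all genes of similar level. For the bulk of these genes, a robust estimate put the SD of a log2 ratio at no more than 0.28 at 100 CPM or more. The same estimate was 0.26 for genes at 20 to 100 CPM, 0.37 for 5 to 20 CPM and 0.62 for 1 to 5 CPM. It is called the bound on the spread, or the spread, below. It leaves out the tails, where 3.93% of tested genes were called above the sum and 3.84% below. It is therefore no upper limit for any single gene, and without replicates multiples of it give scale only. In bulk RNA, fewer cells in a phase of the cycle and less message per cell cannot be told apart.

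The line was checked against its markers. VIM and CD44, mesenchymal markers, stood at 2643 to 4598 CPM and 706 to 883 CPM. The markers ESR1, PGR, CDH1 and EPCAM did not exceed 1.95 CPM, but GATA3 was detected at 5.52 to 13.0 CPM. ERBB2 stood at 110 to 143 CPM. Of the markers of other cells, PTPRC was at 11.1 to 17.5 CPM, and PECAM1 was at 15.2 CPM without treatment, 40.9 with palbociclib, 17.5 with indisulam and 20.4 with both drugs. PECAM1 was thus highest in the palbociclib library, where CCND1, CCND2 and CCNE1 were also above untreated, and its part in those results was not tested.

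**Figure D1:**
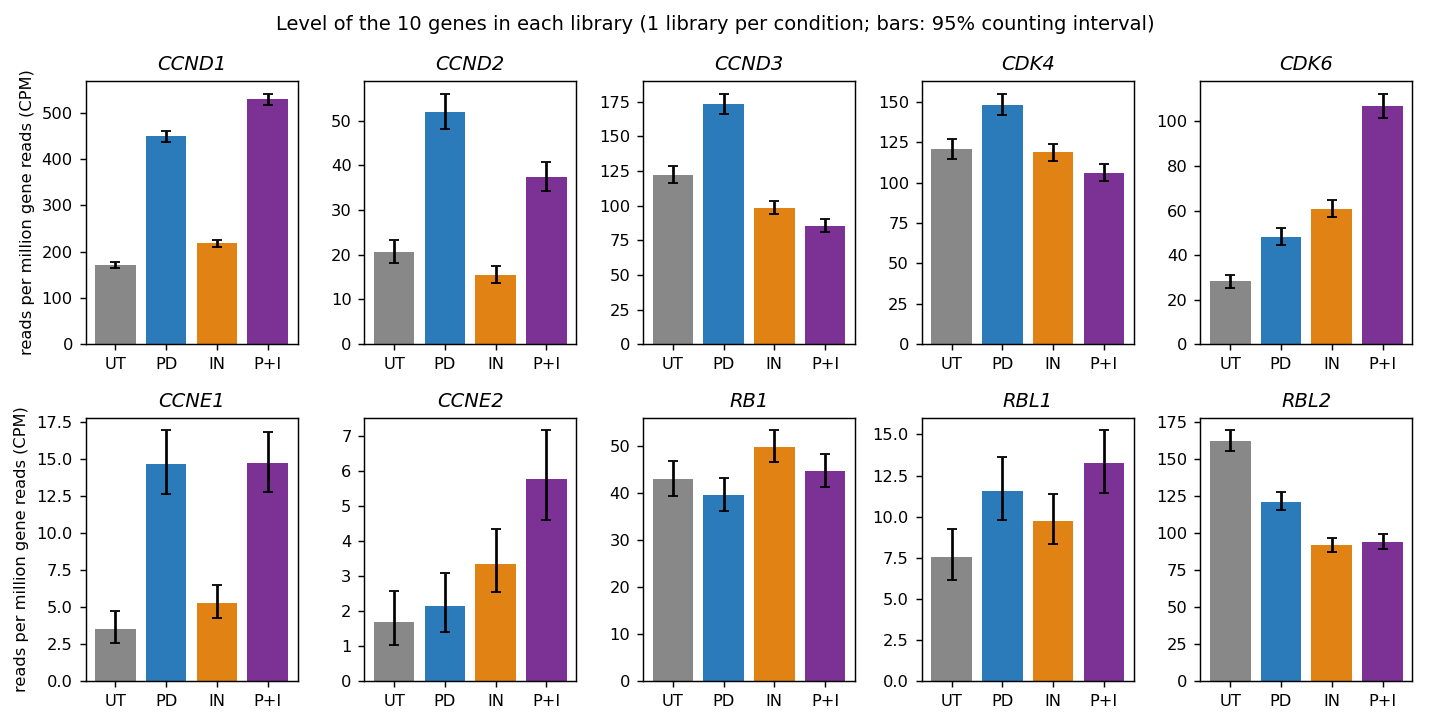
Level of each of the 10 genes in CPM, in the untreated (UT), palbociclib (PD), indisulam (IN) and combination (P+I) libraries. Bars are single libraries, error bars are exact Poisson 95% intervals, and each panel has its own axis from 0. CCND1, CCND2 and CCNE1 are high in both libraries with palbociclib, CDK6 lies between 28.2 CPM untreated and 107 CPM with both drugs, and RBL2 is highest without treatment.

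Palbociclib went with more message of CCND1, CCND2 and CCNE1, indisulam with more CDK6, and the combination with more CCND1, CDK6, CCNE1 and CCNE2. RB1, RBL1 and RBL2 were called in no comparison. In the palbociclib library against untreated, 3 of the 10 genes were called higher and 0 lower, where 5.85% of the 14269 tested genes were called higher and 4.89% lower. For indisulam against untreated the count was 1 higher and 0 lower, beside 8.39% and 6.69% of all genes. For the combination against untreated it was 4 higher and 0 lower, beside 12.9% and 10.5% (1844 and 1505 genes, or 1615 and 1719 with TMM factors). The median log2 ratio of the 10 genes to untreated was 0.56 with palbociclib, 0.28 with indisulam and 0.83 with both, against -0.02, 0.06 and 0.05 over all tested genes.

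The combination was also set against each drug alone. Against palbociclib, 2 of the 10 genes (CDK6 and CCNE2) were called higher and 1 (CCND3) lower, where 9.56% of all genes were higher and 7.38% lower. Against indisulam, 3 (CCND1, CCND2 and CCNE1) were called higher and 0 lower, where 5.04% were higher and 3.15% lower. The ratio of palbociclib to untreated and that of the combination to indisulam share no library, so the effect of palbociclib was read off once without and once with indisulam. CCND1, CCND2 and CCNE1 were called higher in each. Likewise, CDK6 was called higher in each of the separate readings for indisulam.

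**Figure D2:**
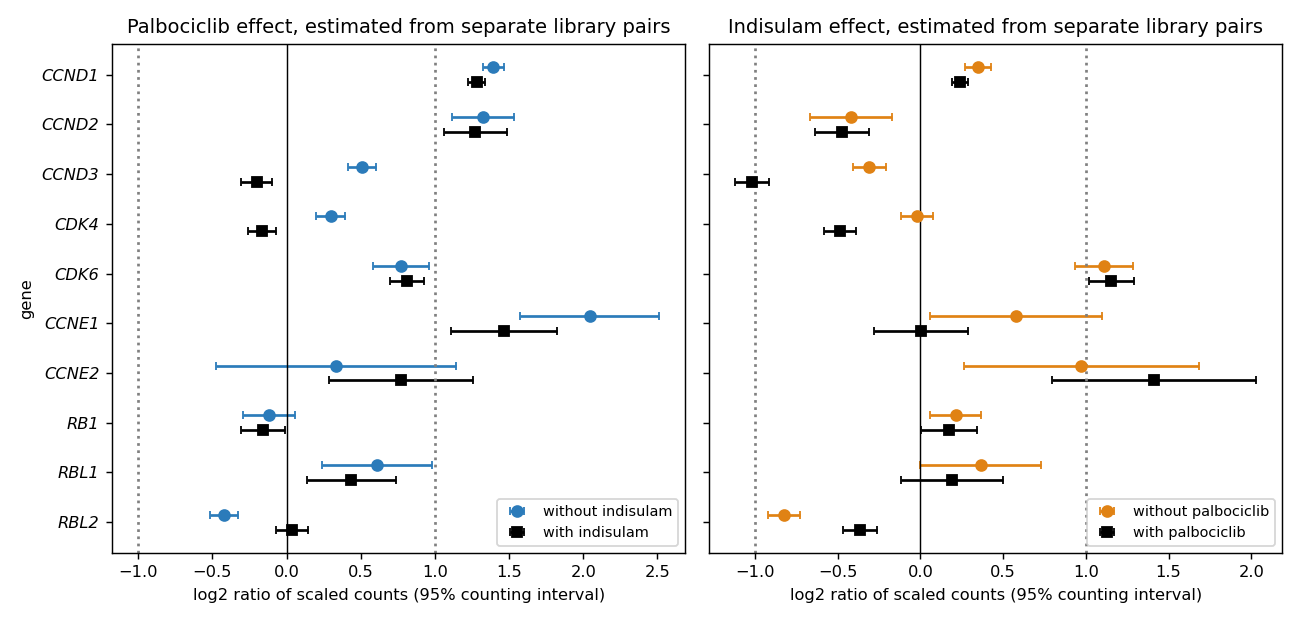
Log2 ratio of scaled counts for each of the 10 genes, for palbociclib (left) without and with indisulam and for indisulam (right) without and with palbociclib. Points are single library pairs, bars 95% counting intervals and dotted lines 2-fold. The paired points lie within 0.11 of each other for CCND1, CCND2, CDK6 and RB1 and lie on opposite sides of 0 in the left panel for CCND3, CDK4 and RBL2, the last with 1 interval that includes 0.

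Among the D-type cyclins, CCND1 carried most of the response. CCND1, the cyclin most often amplified in breast cancer (ENSG00000110092, chr11:69641156-69654474), stood at 171 CPM without treatment, 449 CPM with palbociclib, 218 CPM with indisulam and 530 CPM with the combination. Both libraries with palbociclib were above both without it. Relative to untreated, palbociclib gave a log2 ratio of 1.39 (1.32 to 1.46), indisulam one of 0.35 (0.27 to 0.43) and the combination one of 1.63 (1.56 to 1.70), which is 2.63-fold, 1.27-fold and 3.10-fold. Against indisulam alone the combination was 2.43-fold higher, and against palbociclib alone 1.18-fold, a log2 ratio of 0.24 that lies under the spread of 0.28. LTO1 exons on the opposite strand cover 10.4% of the CCND1 exon bases.

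CCND2, a D cyclin of lower level in this line (ENSG00000118971, chr12:4269771-4305353), stood at 20.7 CPM untreated, 51.9 CPM with palbociclib, 15.4 CPM with indisulam and 37.4 CPM with both. Again both libraries with palbociclib were the higher ones, but here the indisulam library was the lowest. On the log2 scale, palbociclib differed from untreated by 1.32 (1.12 to 1.53) and indisulam by -0.42 (-0.67 to -0.17), and the combination, which was not called, by 0.85 (0.64 to 1.06). The combination was 2.42-fold above indisulam. Of the CCND2 exon bases, 12.5% are shared with another gene model on the same strand, ENSG00000285901, and where counting used both models, reads there may have been left out as ambiguous.

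CCND3, the third D cyclin (ENSG00000112576, chr6:41934934-42050357), moved differently, at 122 CPM untreated, 173 CPM with palbociclib, 98.5 CPM with indisulam and 85.6 CPM with the combination. It was highest in the palbociclib library and lowest in the combination library. No ratio to untreated reached 2-fold: the log2 values were 0.51 with palbociclib, -0.31 with indisulam and -0.51 with both. The combination was 2.03-fold lower than palbociclib alone, a log2 ratio of -1.02 (-1.12 to -0.92), which lies close to the 2-fold threshold and is 3.64 times the bound on the spread at this level.

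Within a library, the ratio of one gene to another does not depend on how libraries are scaled. The CCND1 to CCND3 ratio per exon length was 1.70 (1.59 to 1.81) in untreated cells, 3.13 (2.98 to 3.29) under palbociclib, 2.68 (2.52 to 2.84) under indisulam and 7.49 (7.05 to 7.96) under the combination. None of these intervals overlapped, and the ratio in the combination was 4.42 times (4.04 to 4.83) that in untreated cells. CCND1 made up 60.2% of D cyclin reads per length without treatment and 85.1% with the combination, while CCND3 made up 35.5% and 11.4%. CCND2 stayed between 2.98% and 4.96%. Summed per length, the D cyclins were 2.19-fold above untreated with palbociclib, 1.08-fold with indisulam and 2.19-fold with the combination. With the longest transcript as length, these totals were 1.97-fold, 1.00-fold and 1.76-fold. The levels between genes depend on the length used: with the longest transcript in place of all exons, the CCND1 to CCND3 ratio was 0.792 without treatment and 3.50 with the combination, so that CCND3 was then the more abundant in untreated cells. The change of this ratio between libraries does not depend on the length, as long as each gene keeps the same length in all libraries. Whether transcript length differed between libraries was not tested.

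**Figure D3:**
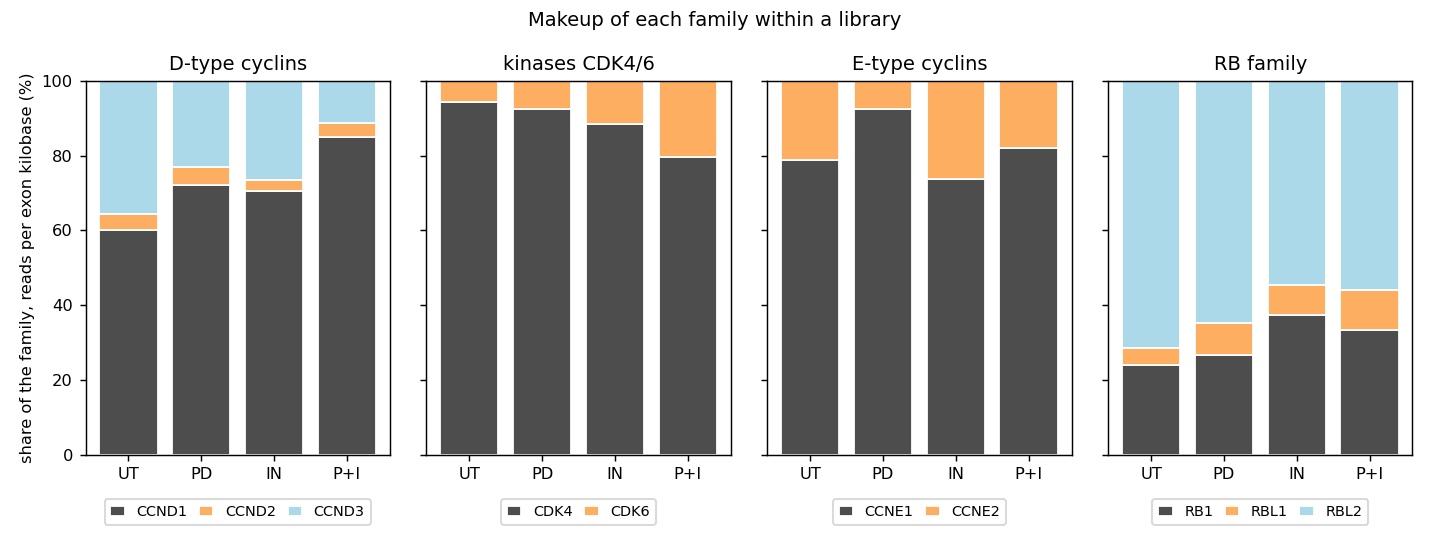
Share of each gene in its family, in percent of reads per kilobase of exon, in the untreated (UT), palbociclib (PD), indisulam (IN) and combination (P+I) libraries. Each stacked bar is 1 library. CCND1 fills 60.2% to 85.1% of the D cyclins, CDK6 5.58% to 20.3% of the kinases, CCNE1 73.7% to 92.5% of the E cyclins and RBL2 54.6% to 71.5% of the RB family.

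The kinases themselves parted. CDK4 (ENSG00000135446, chr12:57747727-57756013), one of the cyclin D kinases, stood at 121 CPM untreated, 148 CPM with palbociclib, 119 CPM with indisulam and 106 CPM with both. No comparison was called. The widest was the combination against palbociclib, at -0.48 (-0.58 to -0.39), which is 1.73 times the bound on the spread. Its log2 ratio to untreated was 0.30 with palbociclib, -0.02 with indisulam and -0.19 with the combination, of which only that with palbociclib exceeded the spread of 0.28. Exons of TSPAN31 on the opposite strand cover 44.2% of the CDK4 exon bases, and it was not stated whether strand was used in counting. Without strand, reads there may have gone to neither gene.

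CDK6 (ENSG00000105810, chr7:92604921-92836573), the other of them, stood at 28.2 CPM untreated, 48.1 CPM with palbociclib, 60.9 CPM with indisulam and 107 CPM with the combination. Each single drug gave a higher level than no drug, and the combination was the highest of the 4. Against untreated, the CDK6 log2 ratio reached 0.77 (0.58 to 0.96) under palbociclib, 1.11 (0.94 to 1.28) under indisulam and 1.92 (1.76 to 2.09) under both, a 3.79-fold difference that is 7.35 times the bound on the spread at this level. The effect of indisulam was 1.15 in the presence of palbociclib, and that of palbociclib 0.81 in the presence of indisulam. The combination lay 0.04 (-0.18 to 0.27) from the sum of the single drugs.

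The CDK6 to CDK4 ratio per length, in which library scaling cancels, went from 0.0591 (0.0526 to 0.0663) without treatment to 0.0820 (0.0748 to 0.0898) under palbociclib, 0.130 (0.120 to 0.140) under indisulam and 0.255 (0.238 to 0.274) under the combination. The intervals were separate in all 4 libraries. The ratio with the combination was 4.32 times (3.78 to 4.95) that without treatment. CDK6 still made up a minority of the kinase message, 5.58% without treatment and 20.3% with the combination. With the longest transcripts its ratio to CDK4 was 0.0374 and 0.162. The sum of both kinases per length was 1.25-fold of untreated with palbociclib, 1.05-fold with indisulam and 1.04-fold with the combination, the last turning to 0.983-fold with the longest transcripts.

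The E-type cyclins, which activate CDK2, did not exceed 14.7 CPM in any library. CCNE1 (ENSG00000105173, chr19:29811991-29824312) stood at 3.50 CPM untreated (44 reads), 14.7 CPM with palbociclib (186 reads), 5.27 CPM with indisulam (88 reads) and 14.7 CPM with the combination (211 reads). Both libraries with palbociclib were above both without it, and these did not differ from each other. Palbociclib gave a log2 ratio of 2.04 (1.57 to 2.51) to untreated, indisulam 0.58 (0.06 to 1.10) and the combination 2.05 (1.58 to 2.51), which is 4.12-fold, 1.49-fold and 4.13-fold. For the combination, this interval overlapped those of CDK6 and CCNE2. The combination was 2.77-fold above indisulam and 1.00-fold of palbociclib, a log2 ratio of 0.00 with an interval from -0.28 to 0.29.

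CCNE2 (ENSG00000175305, chr8:94879770-94896678) showed another order, at 1.67 CPM untreated (21 reads), 2.13 CPM with palbociclib (27 reads), 3.35 CPM with indisulam (56 reads) and 5.78 CPM with the combination (83 reads). The libraries with indisulam were above those without it. The log2 ratio was 0.33 (-0.47 to 1.14) for palbociclib against untreated, 0.97 (0.26 to 1.68) for indisulam, and 1.75 (1.07 to 2.43) when both drugs were given. Only the combination was called, 3.36-fold above untreated and 2.66-fold above palbociclib, at 2.80 and 2.26 times the bound of 0.62 for genes this low. INTS8 exons on the opposite strand cover part of the 37.1% of CCNE2 exon bases shared with other genes.

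The CCNE2 to CCNE1 ratio per length was 0.267 (0.159 to 0.449) in the untreated library, 0.0812 (0.0543 to 0.122) in that with palbociclib, 0.356 (0.255 to 0.498) in that with indisulam and 0.220 (0.171 to 0.284) in that with both. The palbociclib library stood apart at 0.304 times (0.157 to 0.587) the untreated ratio. The intervals of the other 3 overlapped, although set directly against indisulam the combination had 0.618 times (0.406 to 0.941) its ratio. Together the E cyclins per length were 3.57-fold above untreated with palbociclib, 1.61-fold with indisulam and 4.04-fold with the combination.

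The RB family differed less than the cyclins. RB1 (ENSG00000139687, chr13:48303744-48599436), the substrate that gives the family its name, stood at 43.0 CPM untreated, 39.6 CPM with palbociclib, 49.8 CPM with indisulam and 44.6 CPM with both. Its log2 ratios in the 5 comparisons ran from -0.16 to 0.21, all under the spread of 0.26. The interval of the combination against untreated, -0.11 to 0.22, leaves room for a small difference in either direction.

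RBL1 (ENSG00000080839, chr20:36996349-37095997), which is p107, stood at 7.57 CPM untreated, 11.6 CPM with palbociclib, 9.75 CPM with indisulam and 13.2 CPM with the combination. All 3 treated libraries were above the untreated one, without a call. Their log2 ratios were 0.61 (0.24 to 0.98) for palbociclib, 0.36 for indisulam, with an interval from just under 0 to 0.73, and 0.80 (0.45 to 1.15) for both drugs, against a spread of 0.37. CCNE1 was likewise above untreated in the 3 treated libraries. A link of the E2F words searched to the levels of either gene was not tested.

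RBL2 (ENSG00000103479, chr16:53433977-53491648), which is p130, ran the other way, at 162 CPM untreated, 121 CPM with palbociclib, 91.6 CPM with indisulam and 93.9 CPM with the combination. The untreated library was the highest, and those with indisulam were the lowest and did not differ from each other. Set against untreated, the RBL2 level under palbociclib differed by -0.42 log2 units (-0.52 to -0.32), under indisulam by -0.82 (-0.92 to -0.73) and under the combination by -0.79 (-0.88 to -0.69), the last at 2.80 times the bound on the spread but short of 2-fold. AKTIP and another gene model on the opposite strand share 16.4% of the RBL2 exon bases.

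Within the family, the RBL2 to RB1 ratio per length was 2.99 (2.72 to 3.29) in untreated cells, 2.42 (2.19 to 2.68) under palbociclib, 1.46 (1.34 to 1.59) under indisulam and 1.67 (1.52 to 1.83) under both drugs. Both libraries with indisulam were below both without it, at 0.488 times (0.429 to 0.554) the untreated ratio for indisulam and 0.559 times (0.489 to 0.639) for the combination. RBL1 to RB1 was 0.190 without treatment and 0.211 with indisulam, against 0.316 with palbociclib and 0.320 with the combination, so this ratio split by palbociclib. RBL2 made up 71.5% of RB family reads per length without treatment and 55.8% with the combination, RB1 23.9% and 33.4%, and RBL1 4.55% and 10.7%. The family total was 0.824-fold of untreated with palbociclib, 0.740-fold with indisulam and 0.743-fold with the combination.

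Across the whole set, the order of levels per exon length without treatment was CDK4 at 39.0 RPKM, CCND1 at 35.9, CCND3 at 21.2, RBL2 at 19.97, RB1 at 6.68, CCND2 at 2.59, CDK6 at 2.30, CCNE1 at 1.42, RBL1 at 1.27 and CCNE2 at 0.380 RPKM. The counting intervals of CDK4 and CCND1 overlapped, as did those of CCND3 and RBL2, of CCND2 and CDK6, and of CCNE1 and RBL1. With the combination, CCND1 led at 111 RPKM, followed by CDK4 at 34.2, CCND3 at 14.9, RBL2 at 11.6, CDK6 at 8.75, RB1 at 6.94, CCNE1 at 5.97, CCND2 at 4.68, RBL1 at 2.22 and CCNE2 at 1.31 RPKM. RB1 and CCNE1 overlapped there. This order rests on the exon lengths used.

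The combination was then set against the sum of the single drugs. None of the 10 genes departed from the sum by 2-fold, where 3.93% of all tested genes were called above and 3.84% below it. The median departure was -0.08 log2 units, against 0.01 over all genes. CCND3 departed most, by -0.71 (-0.85 to -0.57), 1.79 times the robust spread of the departure at its level. CCNE1 followed at -0.57 (-1.16 to 0.02), RBL2 at 0.46, CDK4 at -0.46 and CCNE2 at 0.44 (-0.50 to 1.38). Each of these was at most 1.17 times that spread. CCND1 at -0.11, CCND2 at -0.05, CDK6 at 0.04, RB1 at -0.04 and RBL1 at -0.17 lay well within it.

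To place the 10 genes in their pathway, 62 other genes were listed by role, of which 60 were tested. Palbociclib against untreated called 4 of them higher and 7 lower, indisulam 5 higher and 2 lower, and the combination 11 higher and 5 lower. The shares over all tested genes were 5.85% higher and 4.89% lower, 8.39% and 6.69%, and 12.9% and 10.5%, and each role below is small, so that its counts are read against these. The median log2 ratio was 0.04, 0.30 and 0.18. The combination against palbociclib called 5 of the 60 higher and 5 lower, beside 9.56% and 7.38% of all tested genes. Against indisulam it called 0 higher and 5 lower, beside 5.04% and 3.15%.

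CDK2, the kinase of cyclin E, stood at 40.1 CPM untreated, 36.7 with palbociclib, 34.8 with indisulam and 35.4 CPM with both, and all 5 of its log2 ratios lay between -0.20 and 0.02. CCNH, the cyclin of the CDK-activating kinase, stood at 44.4, 45.1, 24.5 and 19.1 CPM in the same order of libraries. It was lower in both libraries with indisulam and was called with the combination, at a log2 ratio of -1.22 (-1.42 to -1.01). CDC25A, the phosphatase that activates CDK2, was called higher with the combination at 1.29 (0.89 to 1.68). These 2 were the called ones of the 5 genes listed as CDK2 and its activators.

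Of the 5 tested CDK inhibitors, none was called higher against untreated, and 2 (CDKN1C and CDKN2D) were called lower with palbociclib, 0 with indisulam and 1 (CDKN1C) with the combination, beside 4.89%, 6.69% and 10.5% of all genes. CDKN2A (p16) and CDKN2B, also listed, had 0 to 3 reads per library, did not pass the filter on low counts and were not tested. CDKN1A (p21) stood at 61.8 CPM untreated, 62.4 with palbociclib, 40.6 with indisulam and 47.1 CPM with the combination. CDKN1B (p27) stood at 26.4, 18.3, 29.1 and 15.7 CPM, the lower levels being those with palbociclib, and was not called. CDKN2D (p19), an inhibitor of CDK4 and CDK6, was called lower with palbociclib at -1.03 (-1.50 to -0.56) and stood at -0.86 with the combination.

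The E2F and DP factors lay above untreated at the median, by 0.41 log2 units with palbociclib, 0.56 with indisulam and 0.58 with both, and 1, 3 and 3 of the 10 were called higher, beside 5.85%, 8.39% and 12.9% of all genes, and none lower. E2F1, an activator bound by RB1, stood at 6.13 CPM untreated, 13.1 with palbociclib, 14.4 with indisulam and 18.9 CPM with the combination, and was called higher in all 3 comparisons with untreated. E2F7, a repressive E2F, stood at 5.81, 7.17, 16.3 and 29.1 CPM. Its log2 ratio with the combination was 2.31 (1.95 to 2.67). E2F3, another activator, reached 1.20 (0.99 to 1.42) with the combination.

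Of the 8 listed MuvB and DREAM components, LIN9, a MuvB core subunit, was called higher with palbociclib at 1.32, with indisulam at 1.07 and with both at 1.47. LIN54, the DNA-binding subunit of that core, was called with the combination at 1.17. FOXM1, the factor that MuvB recruits in G2, stood at 59.2 CPM untreated, 19.9 with palbociclib, 53.6 with indisulam and 37.8 CPM with the combination. It was called lower with palbociclib at -1.57 and departed from the sum of the drugs by 1.07.

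The 17 listed E2F target genes of G1/S did not move as one. Palbociclib called 2 higher (MCM2 and MCM3) and 4 lower (CDT1, TK1, TYMS and CCNA2), indisulam called none, and the combination called 4 higher (CDC6, MCM2, MCM3 and MCM4) and none lower. Over all genes, 5.85% were higher and 4.89% lower with palbociclib and 12.9% higher with the combination. MCM4, a subunit of the replicative helicase, stood at 47.2 CPM untreated, 92.4 with palbociclib, 88.6 with indisulam and 134 CPM with both. CDC6, which loads that helicase, reached a log2 ratio of 1.38 with the combination. CCNA2, the cyclin of S phase and G2, stood at 40.5 CPM untreated, 10.0 with palbociclib, 55.3 with indisulam and 29.2 CPM with the combination. Against untreated this was a log2 ratio of -2.01 for palbociclib and -0.47 for both drugs, the latter not called, and CCNE1 was high in both of these libraries.

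**Figure D4:**
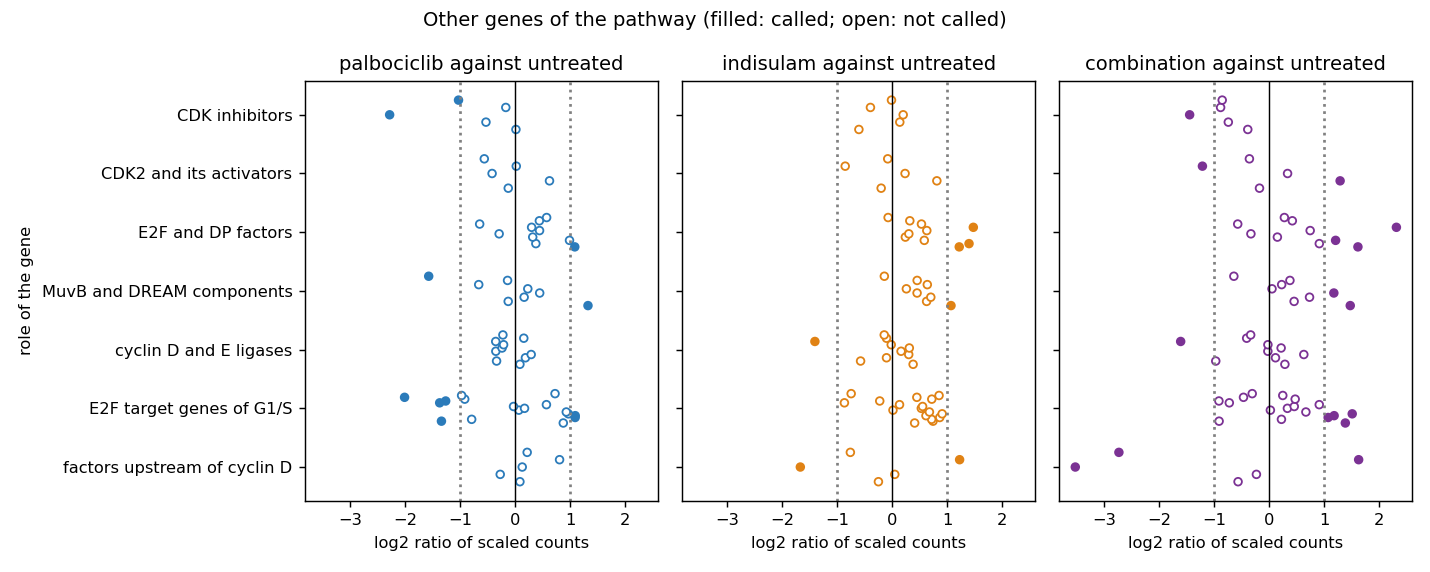
Log2 ratio to untreated of the 60 tested pathway genes, by role, for palbociclib, indisulam and the combination. Each circle is 1 gene, filled where the ratio was called, and dotted lines mark 2-fold. The E2F and DP factors lie mostly right of 0, and the E2F target genes of G1/S lie on both sides.

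Of the factors that act upstream of cyclin D, FOS, an early response gene, stood at 190 CPM untreated, 208 with palbociclib, 59.7 with indisulam and 16.4 CPM with the combination. EGR1, also an early response gene, stood at 247, 287, 146 and 37.0 CPM. Both were called lower with the combination, at -3.53 and -2.73, and fell by 1.99 and 2.19 more than the sum of the single drugs. FOSL1, a later partner in AP-1, ran the other way, from 22.6 CPM untreated to 69.8 CPM with both drugs, a log2 ratio of 1.62. MYC stood at 355 CPM untreated and 239 CPM with the combination, a log2 ratio of -0.57 without a call. CCND1 was highest in the library in which FOS, EGR1 and MYC were lowest and FOSL1 highest. It was also above untreated with palbociclib alone, where FOS and EGR1 were highest. JUN, listed in the same role, stood at 132 CPM untreated, 109 with palbociclib, 136 with indisulam and 112 CPM with both. A link of these factors to CCND1 was not tested. Of the 10 ubiquitin ligase genes that target cyclins D and E, FBXO4 was called lower, at -1.41 with indisulam and -1.61 with the combination, and it stood at 27.4 CPM untreated and 8.91 CPM with both.

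Finally, for each of the genes called against untreated, the 3 genes of at least 20 CPM whose log2 ratios to untreated lay nearest were found among 8037 genes. For CDK6 they were ABHD5 at a distance of 0.08 log2 units, MARCKS at 0.08 and OSTM1 at 0.16. For CCNE2 they were LPXN and FGF2 at 0.10 and SPDL1 at 0.14. For CCND1 they were WFS1 at 0.20, COL27A1 at 0.25 and MEG3 at 0.32. The nearest to CCND2 were SYT12 at 0.27, SH3PXD2A at 0.33 and PPIC at 0.36, and the nearest to CCNE1 were SAA2 at 0.40, APCDD1 at 0.45 and NREP at 0.53. No other gene of the 10 was among these, and since each distance is over 3 ratios from the same 4 libraries, it is a description only.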

How the data were processed

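Libraries were made by the authors from poly(A) RNA with a stranded kit. The processing notes of the submitters name TopHat2 2.1, HTSeq and GRCh38. The strand setting of the counting and the annotation release are not given in the sources used here. The deposited values are raw counts of reads per Ensembl gene, not normalized. Tallies of reads in no gene (0.615% to 0.694%), in more than 1 gene (2.41% to 2.63%) or at more than 1 place (6.46% to 6.84%) were kept apart.

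Each count was scaled to its library's gene total, as the study's methods do, and brought to the mean total, and a pseudocount of 1 was added. Of 29056 genes with a count, 14269 with a mean of at least 1 CPM were tested. Exon lengths and positions were taken from GENCODE on GRCh38, which held 56104 of the genes. A floor of 3 counts corresponds to 0.180 to 0.239 CPM. Without molecular identifiers, reads can be copies of 1 molecule, so intervals and floors hold counting error only. With 1 library per condition, no differential test was run. Scripts were tested on simulated data. TMM factors (edgeR 4.0.16), size factors of DESeq2 1.42.0, totals without mitochondrial genes, other thresholds and another length were tried. The labels name no batch, so batch and condition cannot be told apart.

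The 10 genes and the pathway and marker lists were chosen with earlier results of these data known. Named pathway genes were CDK2, CDKN1A, CDKN1B, E2F1 and MYC, and in each role up to 3 genes of at least 5 CPM called against untreated with the largest ratio. CDKN1C, CDKN2A, CDKN2B, JUN, MCM2, MCM3, CDT1, TK1 and TYMS were named after their values were seen.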

Additional observations from a re-analysis of the deposited data

Results flagged for a closer look

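The sign of the palbociclib effect differed between cells without and with indisulam for CCND3 and CDK4. The log2 ratio of CCND3 was 0.51 between palbociclib and untreated cells and -0.20 between the combination and indisulam alone. For CDK4 these values were 0.30 and -0.17. With 1 library per condition the difference was not tested. As departures from the sum of the single drugs, they were -0.71 for CCND3 and -0.46 for CDK4, beside a robust spread of 0.40 over the 2001 genes at 100 CPM or more. The sign in each reading was kept with TMM factors, with the size factors of DESeq2, without mitochondrial genes and with a pseudocount of 0.5. No other of the 10 genes had palbociclib or indisulam effects of opposite sign with intervals that excluded 0.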

How the results depend on the processing

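No call on the 10 genes changed with TMM factors, size factors of DESeq2, totals without mitochondrial genes or a pseudocount of 0.5, and of the 60 log2 ratios, those of CCNE1 between the combination and palbociclib and of RB1 between the combination and untreated, both near 0, changed sign with the scaling. Beyond their counting intervals, 3 moved with TMM and 2 with the DESeq2 factors (CCND1 with both, CDK4 with TMM). A 1.5-fold threshold gave more calls. Of the 10 genes, 5 were then higher with palbociclib (CDK6 and RBL1 added), 2 with indisulam (CCNE2 added), with 1 lower (RBL2), 6 were higher (CCND2 and RBL1 added) and 1 was lower (RBL2) with the combination, 5 were higher in the combination than with indisulam (CDK6 and CCNE2 added) and 1 departed downward from the sum (CCND3). Over all genes, in the order palbociclib, indisulam and combination against untreated, combination against palbociclib and against indisulam, and departure, that threshold called 3533, 4485, 6059, 4683, 3167 and 2685, and in the pathway list 22, 24, 30, 20, 17 and 11. A minimum of 5 CPM called 833, 1212, 2104, 1396, 544 and 582, left CCNE2 out, so that 3 of the 10 were higher with the combination than without treatment and 1 than with palbociclib, and gave 3 pathway calls against indisulam. Without a filter, 1783 genes were called between the combination and indisulam. With the longest transcript as length, 16 of 24 ratios within a library and 10 of 40 family shares moved, the latter chosen after seeing the data. Among those 24 ratios, only that of CCND1 to CCND3 in untreated cells crossed 1. No paired analysis was possible because each condition has 1 library, and no replicate could be left out. Depth limits CCNE2 most, at 21 to 83 reads.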
